A study of Mus musculus with 24 samples.

Results

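The RNA of extracellular vesicles (EVs) shed by BV2 cells under TGF-β was set against the RNA of the TGF-β-treated cells themselves. BV2 is an established mouse microglial line. The comparison rests on 3 TGFB EV libraries and 3 TGFB cell libraries, chosen by their column names, out of 24 libraries in the series. TGFB EVs came from BV2 cells given TGF-β at 50 ng/mL for 72 hours, and TGFB cells are cell pellets of the same treatment. Pairs of EVs and cells under IL10 at 50 ng/mL, under LPS at 100 ng/mL or without treatment (Control), 3 libraries in each group, are used to see where the TGFB pair differs. Total RNA of both compartments was amplified with SMART-Seq v4, which primes on poly(A) tails, and sequenced on a HiSeq X. BV2 is an immortalised line and 1 line only, and the labels do not say whether the numbered libraries are separate cultures, so a p-value here weighs a difference against a spread that could be technical only.

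EVs are membrane particles that bud from the plasma membrane or are released when multivesicular bodies fuse with it, and they carry protein and RNA, much of it fragmented. TGF-β is a cytokine that signals through paired receptor kinases to SMAD transcription factors, and in the brain it maintains the homeostatic state of microglia. In bulk libraries a share of counts is relative: more of a transcript per vesicle and less of all other RNA cannot be told apart.

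The TGFB EV libraries held 4561948, 9804074 and 6909128 counts and the TGFB cell libraries 32717901, 26136825 and 34630767, over 13290 listed genes. Of these genes 6645, 10688 and 9691 had at least 1 count in TGFB EVs, against 12391, 12327 and 12505 in TGFB cells. With every library thinned to 4561948 counts the numbers were 6645, 10547 and 9575 in TGFB EVs and 11938, 11868 and 11951 in TGFB cells, so most of the gap remained at equal depth. The 2 groups did not overlap (exact permutation p = 0.1, two-sided, the smallest that 3 against 3 allows). Pearson's r of log2 CPM (counts scaled to a common library total) between pairs of EV libraries was 0.698, 0.732 and 0.821, against 0.992 to 0.993 between pairs of cell libraries. EV library 2 stood closest to the mean of the TGFB cells (r = 0.826), library 3 next (0.712) and library 1 farthest (0.572). EV library 2 also held the most counts and the most genes, and the counts of list members called are given without it too. Without it the median log2 difference over all genes tested was −0.90. Among the other vesicles Control EV library 1 stood apart. It held 17978753 counts, against 5645725 and 7011591 in Control EV libraries 2 and 3, its r to the mean of the TGFB cells was 0.832, against 0.730 and 0.704, and Ftl1, the ferritin light chain, had 13784 CPM in it, against 86649 and 70534 CPM. The LPS EV libraries held 4370823, 3019338 and 6278724 counts, yet counted 12703, 13225 and 13129 of the listed genes, more than any TGFB EV library.

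Of 11389 genes tested with edgeR's quasi-likelihood test, 1073 were higher in TGFB EVs than in TGFB cells at an adjusted p under 0.05 (9.42%) and 1024 were lower (8.99%). Nearly all of them differed at least 2-fold, 1046 upward and 1006 downward. The EV and cell values did not overlap for 1669 genes that were higher in EVs (14.7%) and 4882 that were lower (42.9%). The lower calls are in large part genes not counted in EVs: 609 of the 1024 had 0 counts in all 3 EV libraries, while 28 of the 1073 higher ones had 0 counts in all 3 cell libraries. With each of the 6 libraries left out in turn, 288 of the higher and 40 of the lower calls held every time. Leaving out cell library 1, 2 or 3 cut the counts to 309, 300 and 314 higher and 43, 40 and 47 lower. Without EV library 1 there were 1790 higher and 2093 lower genes, without EV library 2 1383 and 2688, and without EV library 3 997 and 1421. The median log2 difference over all genes tested was −0.46. It lay between −0.74 and −0.31 under other scalings of the same counts, and 51.2% of the calls were higher ones, against 43.6% when library totals were the scaling. Changes of gene groups are therefore set beside that median.

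**Figure D1:**
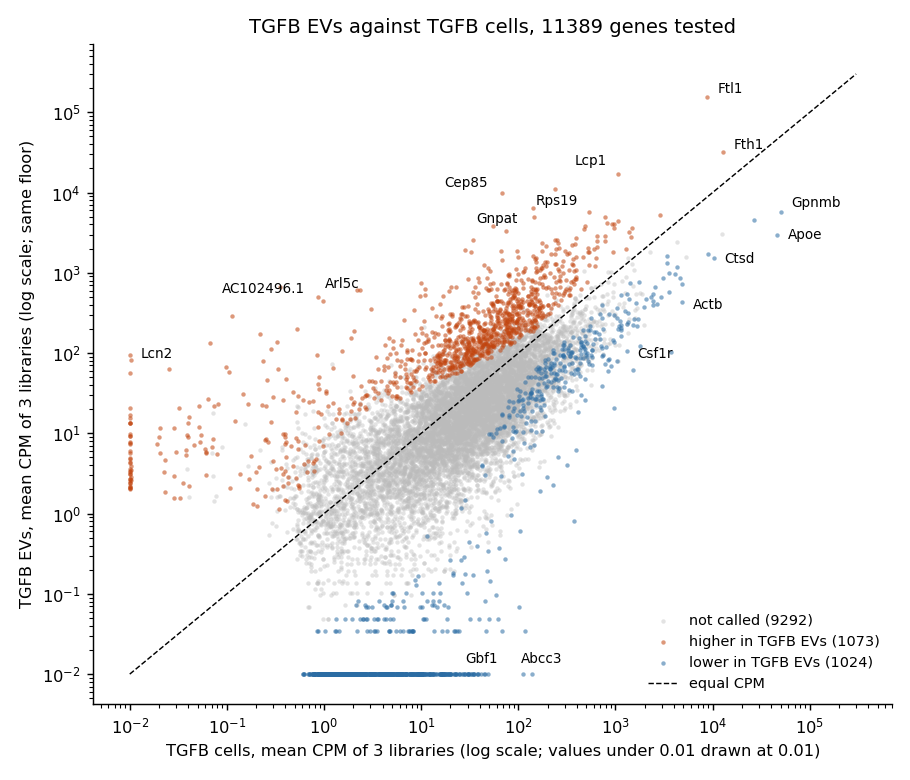
Mean CPM of each gene in TGFB EVs (vertical, log axis) against TGFB cells (horizontal, log axis), with the genes higher and lower in TGFB EVs at an adjusted p under 0.05 coloured. The 1073 higher genes lie above the diagonal and the 1024 lower ones below it, 609 of these on the floor of the plot, with no count in EVs.

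Ferritin transcripts took up the largest share of the EV libraries. Ferritin is the iron storage shell built of a light chain, Ftl1, and a heavy chain with ferroxidase activity, Fth1. Ftl1 had 195149, 123089 and 150434 CPM in TGFB EVs, against 8681, 9264 and 8198 CPM in TGFB cells. Every EV library exceeded every cell library many times over, for a log2 difference of 4.45 (SE 0.23, adjusted p = 0.00124). Fth1 had 33891, 30705 and 30932 CPM in TGFB EVs, against 13091, 13289 and 11821 CPM in TGFB cells, again without overlap (log2 difference 1.60, SE 0.13, adjusted p = 0.00209). Both calls held in all 6 fits with a library left out. Together the 2 chains made up 22.9%, 15.4% and 18.1% of all counts in TGFB EVs and 2.18%, 2.25% and 2.00% in TGFB cells. The pseudogene entries Ftl1-ps1 (1570 against 98.5 CPM on average) and Ftl2-ps (306 against 20.9 CPM) were higher too, and reads of Ftl1 may be split between it and these near-identical copies.

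The light and heavy chain mRNAs share an iron-responsive element in the 5′ untranslated region, a hairpin that iron regulatory proteins bind to block translation. The 30 bases around the hairpin loop are given for both chains and for another mRNA known to carry such an element, ferroportin (Slc40a1, the iron exporter), for comparison with the counts that follow. Capitals mark the 6-base loop, CAGTG and the base after it. Sequences are those of GENCODE M21 transcripts on GRCm38, at chr7:45459778-45459807 (minus strand) for Ftl1, chr19:9982732-9982761 (plus) for Fth1 and chr1:45925464-45925493 (minus) for Slc40a1.
Ftl1: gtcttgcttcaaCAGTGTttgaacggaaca
Fth1: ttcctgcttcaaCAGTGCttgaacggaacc
Slc40a1: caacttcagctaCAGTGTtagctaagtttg

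The other iron genes described here, picked after values had been seen, did not pass the test. Slc40a1 had 215, 582 and 784 CPM in TGFB EVs, against 193, 168 and 232 CPM in TGFB cells. Its ranges overlapped and the difference of 1.73 on the log2 scale (SE 0.51) did not pass (adjusted p = 0.0773). Epas1, a hypoxia factor whose mRNA also carries the element, had 123, 103 and 95.5 CPM in TGFB EVs, against 98.5, 99.7 and 83.4 CPM in TGFB cells, and was not called (adjusted p = 0.293). The transferrin receptor gene Tfrc had 3.29, 224 and 23.0 CPM in TGFB EVs, against 167, 142 and 261 CPM in TGFB cells, a spread among EV libraries that straddled the cells. Slc11a2, the divalent metal transporter, Ncoa4, the receptor for ferritin autophagy, and Ireb2, Aco1 and Hmox1 did not pass either.

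Beside ferritin, a handful of other genes took far larger shares of the vesicle libraries than of the cell libraries. Lcp1, the leukocyte actin-bundling protein L-plastin, had 16680, 13705 and 21030 CPM in TGFB EVs, against 1071, 992 and 1113 CPM in TGFB cells (log2 difference 4.32, SE 0.26, adjusted p = 0.00151). Cep85, a centrosomal protein gene, had 9602, 8451 and 11730 CPM in TGFB EVs, against 56.6, 72.1 and 75.1 CPM in TGFB cells (log2 difference 7.49, SE 0.29, adjusted p = 0.000883). For both, the lowest EV library was far above the highest cell library. Wsb2, which encodes a SOCS box protein, had 6567, 9557 and 17562 CPM in TGFB EVs, against 306, 222 and 190 CPM in TGFB cells (log2 difference 5.86, SE 0.55). Fam168b had 5215, 5253 and 8710 CPM in TGFB EVs, against 179, 120 and 127 CPM in TGFB cells (log2 difference 5.80, SE 0.40). Gnpat, a peroxisomal enzyme of ether lipid synthesis named here after its values were seen, had 5140, 4414 and 5162 CPM in TGFB EVs, against 141, 141 and 155 CPM in TGFB cells (log2 difference 5.36, SE 0.18, adjusted p = 0.000656). All 5 calls held with each library left out in turn. The 10 genes with the most counts made up 29.0%, 21.9% and 26.3% of TGFB EV libraries and 18.8%, 19.0% and 18.1% of TGFB cell libraries.

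**Figure D2:**
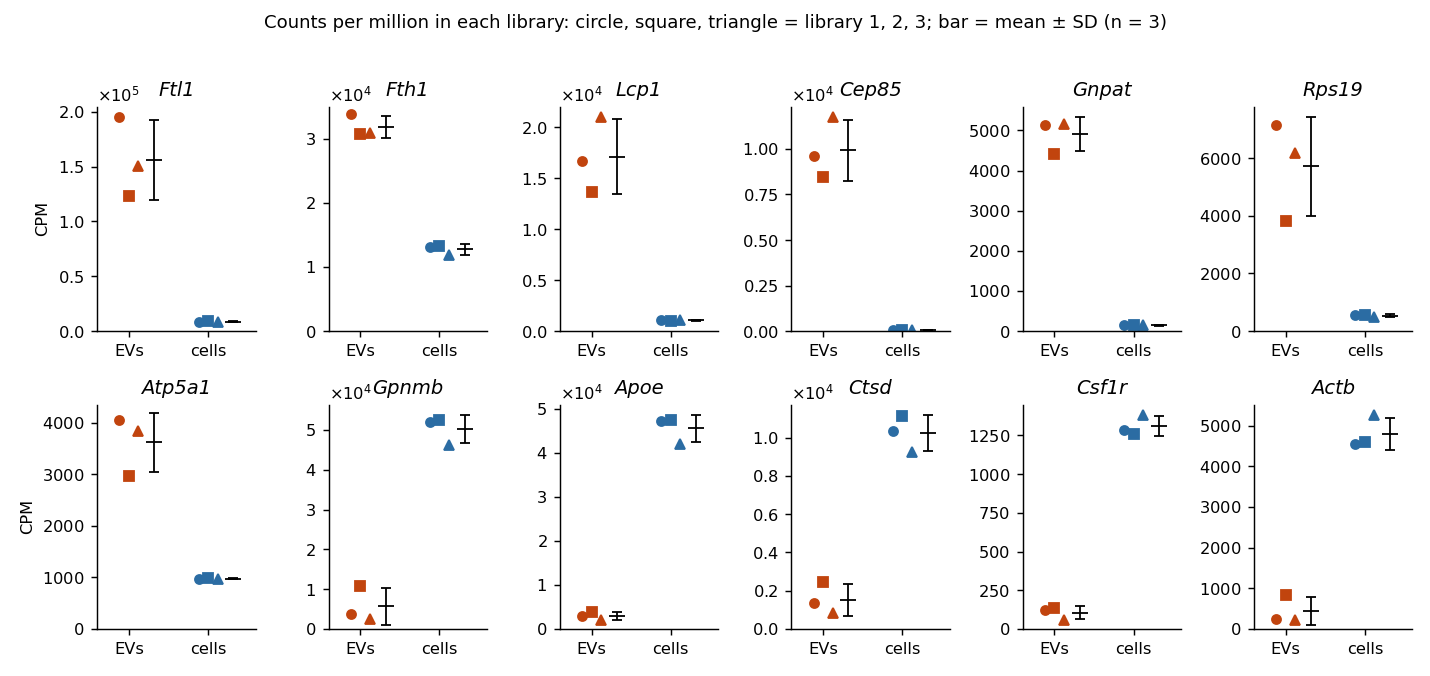
CPM of 12 genes (linear axis from 0, scaled for each gene), with 1 point for each library, TGFB EVs to the left of TGFB cells and the mean ± SD as a bar (n = 3). Ftl1, Fth1, Lcp1, Cep85, Gnpat, Rps19 and Atp5a1 sit higher in all 3 EV libraries, and Gpnmb, Apoe, Ctsd, Csf1r and Actb sit lower in all 3.

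Of the lists tested, ribosomal protein mRNAs had the largest share of members higher in the vesicles. Of 133 listed entries 127 were tested, 90 were higher in TGFB EVs (70.9%, beside 9.42% over all genes) and 0 were lower, and 125 had a positive log2 difference. The list's median was 2.25, against −0.46 over all genes. Entries that are genes gave 76 of 83 and entries named as pseudogenes 14 of 44, which may share reads with their parent genes. Summed, the list made up 11.4%, 7.14% and 10.5% of counts in TGFB EVs and 2.30%, 2.50% and 2.22% in TGFB cells (exact permutation p = 0.1). Leaving out a cell library left 40, 41 and 39 higher calls, and leaving out EV library 2 gave 110 higher and 1 lower.

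Rps19, a small-subunit protein, had 7171, 3814 and 6168 CPM in TGFB EVs, against 548, 571 and 493 CPM in TGFB cells (log2 difference 3.70, SE 0.31, adjusted p = 0.00257). Rps2 had 5767, 3748 and 5462 CPM in TGFB EVs, against 766, 839 and 728 CPM in TGFB cells (log2 difference 2.97, SE 0.25). EV library 2 was the lowest of the 3 vesicle libraries for both, yet above all cell libraries. Rpl9 had 2881, 1937 and 2895 CPM in TGFB EVs, against 244, 265 and 241 CPM in TGFB cells (log2 difference 3.66, SE 0.25). Rps3a1 had 3943, 2694 and 3864 CPM in TGFB EVs, against 472, 469 and 493 CPM in TGFB cells (log2 difference 3.17, SE 0.23). EV library 2 was again the lowest of the vesicle libraries. Rpl13 had 4491, 3348 and 4271 CPM in TGFB EVs, against 933, 984 and 876 CPM in TGFB cells (log2 difference 2.41, SE 0.19), and Rps6, the target of S6 kinase, 2005, 1450 and 2151 CPM in TGFB EVs, against 294, 309 and 304 CPM in TGFB cells (log2 difference 2.92, SE 0.24). All 6 held with each library left out.

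Vertebrate ribosomal protein and elongation factor mRNAs are known for a 5′ terminal oligopyrimidine tract, a C followed by a run of pyrimidines at the cap, through which mTOR controls their translation. The annotated starts of 4 such genes are shown with 30 bases before and 20 after the start, because the group they belong to is the one that was higher, and these 4 because their longest tract has 10 or 11 bases. They come from RefSeq on GRCm38.p6, with capitals marking the tract: Rpl13 at chr8:123102320-123102369 (plus strand), Rps6 at chr4:86857348-86857397 (minus), Eef1a1 at chr9:78481705-78481754 (minus) and Rps18 at chr17:33955646-33955695 (minus).
Rpl13: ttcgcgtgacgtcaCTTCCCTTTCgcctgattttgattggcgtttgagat
Rps6: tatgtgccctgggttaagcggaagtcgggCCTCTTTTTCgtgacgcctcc
Eef1a1: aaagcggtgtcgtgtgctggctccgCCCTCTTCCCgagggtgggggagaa
Rps18: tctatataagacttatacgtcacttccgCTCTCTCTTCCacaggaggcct

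The tract marked for Rpl13 begins 16 bases before the annotated start and ends before it, so it lies outside the annotated transcript. Of other windows read, those of Rps2, Rps19 and Eif4b have a longest tract of 6, 7 and 7 bases that begins after the annotated start, and that of Ftl1, which is not ribosomal, has one of 11 bases. A C followed by at least 5 bases that are each C or T was found in such windows of 41 of 59 ribosomal protein genes with a window (69.5%). The share was 42.5% of the other genes higher in TGFB EVs (298 of 701), 40.5% of those lower (325 of 802), 40.6% of all genes tested (3540 of 8723) and 39.3% of all windows (10612 of 27025). On the opposite strand the same motif was in 27.1% of ribosomal protein windows and 43.7% of windows of all genes tested. Genes higher in the vesicles that are not ribosomal thus held the motif about as often as the background did. A match of letters is a description and not a mapped cap site.

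Among translation initiation and elongation factors 11 of 59 were higher (18.6%) and 2 lower (3.39%) in TGFB EVs, beside 9.42% and 8.99% over all genes. Without cell library 1, 2 or 3 the number higher was 4, 6 and 5. Without EV library 2 there were 12 higher and 8 lower, and the median turned to −0.18, against 0.0077 with all libraries. Eef1a1, which brings aminoacyl-tRNA to the ribosome, had 5245, 4738 and 5786 CPM in TGFB EVs, against 3009, 2678 and 2863 CPM in TGFB cells (log2 difference 1.17, SE 0.16, adjusted p = 0.0103, but 0.0738 without cell library 2). Eef1g, a subunit of its exchange factor, had 3150, 2301 and 3140 CPM in TGFB EVs, against 637, 682 and 608 CPM in TGFB cells (log2 difference 2.45, SE 0.21). Eif4b, a cofactor of the helicase that unwinds mRNA leaders, had 1950, 1988 and 2193 CPM in TGFB EVs, against 546, 520 and 501 CPM in TGFB cells (log2 difference 2.26, SE 0.16). None of the 3 overlapped between compartments. The repressors that hold the cap-binding protein were higher as well. Eif4ebp2 had 2427, 2092 and 3277 CPM in TGFB EVs, against 35.0, 35.0 and 33.3 CPM in TGFB cells (log2 difference 6.54, SE 0.31, adjusted p = 0.00119), and Eif4ebp1 had 213, 195 and 210 CPM in TGFB EVs, against 65.2, 70.6 and 57.9 CPM in TGFB cells (log2 difference 1.96, SE 0.22). The calls of Eef1g, Eif4b, Eif4ebp2 and Eif4ebp1 held with every library left out.

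The 13 transcripts made in mitochondria had a median log2 difference of −2.19, with 0 higher and 1 lower, and without EV library 2 the median was −3.77 with 9 lower. That 1 call is 7.69% of the list, beside 8.99% lower over all genes. They made up 0.0575%, 0.181% and 0.0336% of counts in TGFB EVs and 0.407%, 0.388% and 0.567% in TGFB cells. The ribosomal RNA mt-Rnr2 had 337, 456 and 148 CPM in TGFB EVs, against 1183, 1258 and 1549 CPM in TGFB cells (log2 difference −1.83, SE 0.38, adjusted p = 0.0242, but 0.104 without cell library 3). The cytochrome oxidase subunit mt-Co1 had 106, 533 and 61.4 CPM in TGFB EVs, against 1211, 1101 and 1652 CPM in TGFB cells. Its groups did not overlap, yet the difference did not pass (adjusted p = 0.13).

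Nuclear genes for mitochondrial proteins held few lower calls with all libraries. Of 79 oxidative phosphorylation genes 9 were higher (11.4%) and 1 lower in TGFB EVs, and of 77 mitochondrial ribosomal protein genes 11 were higher (14.3%) and 0 lower, beside 9.42% higher over all genes. Without EV library 2 the oxidative phosphorylation list had 13 higher and 12 lower, with a median of −0.11, against 0.076 with all libraries, and the mitochondrial ribosomal protein list 15 higher and 7 lower. Without any 1 cell library 4 and 0 were higher and 0 lower in both. Uqcrfs1, the Rieske iron-sulfur subunit of complex III, had 1083, 710 and 844 CPM in TGFB EVs, against 188, 179 and 198 CPM in TGFB cells (log2 difference 2.51, SE 0.21, adjusted p = 0.00255). Atp5a1, the catalytic-core alpha subunit of ATP synthase, had 4045, 2975 and 3845 CPM in TGFB EVs, against 962, 983 and 966 CPM in TGFB cells (log2 difference 2.19, SE 0.19). Neither overlapped between compartments. Cox7a2l, a supercomplex assembly factor, had 528, 429 and 559 CPM in TGFB EVs, against 148, 144 and 152 CPM in TGFB cells (log2 difference 2.06, SE 0.21), and Atp5g3, a subunit of the ATP synthase c-ring, 966, 734 and 718 CPM in TGFB EVs, against 293, 314 and 319 CPM in TGFB cells (log2 difference 1.66, SE 0.17). These 4 calls held with every library left out. Mrpl42 and Mrpl19 were higher by 1.93 (SE 0.25) and 2.06 (SE 0.27) on the log2 scale, but lost the call without a cell library (adjusted p = 0.0623 without cell library 1 and 0.0642 without cell library 2).

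Unnamed gene models and long noncoding RNAs took a larger share of the vesicle libraries. Unnamed models made up 1.77%, 1.52% and 1.86% of counts in TGFB EVs and 1.01%, 1.05% and 0.978% in TGFB cells. Of 886 tested 144 were higher (16.3%) and 91 lower (10.3%), beside 9.42% and 8.99% over all genes. Leaving out a cell library left 20 to 23 higher and 2 lower, and leaving out EV library 2 gave 196 higher and 197 lower. By GENCODE biotype 38 of 189 lincRNAs tested were higher and 16 lower, of 60 models that await experimental testing (TEC) 24 were higher and 6 lower, and of 10520 protein-coding genes 910 were higher and 944 lower. The model 5031425E22Rik had 687, 518 and 620 CPM in TGFB EVs, against 2.29, 2.53 and 2.22 CPM in TGFB cells (log2 difference 8.30, SE 0.27, adjusted p = 0.000656). Gm42047 had 1572, 1899 and 2178 CPM in TGFB EVs, against 88.9, 88.1 and 111 CPM in TGFB cells (log2 difference 4.59, SE 0.24). These are tight within each compartment and far apart between them. Gm26917 went the other way, with 24.8, 22.8 and 13.6 CPM in TGFB EVs, against 1140, 1035 and 749 CPM in TGFB cells (log2 difference −5.32, SE 0.33, adjusted p = 0.00151), as did Gm23935 with 101, 51.7 and 29.2 CPM in TGFB EVs, against 1370, 1959 and 1162 CPM in TGFB cells (log2 difference −4.37, SE 0.54). All 4 calls held with every library left out, and counts of such models may include reads of repeated copies.

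Of 20 well-known long noncoding RNAs tested 4 were higher in TGFB EVs (20%, beside 9.42% over all genes) and 0 lower. There were 4 and 1 without EV library 2 and 0 calls without any 1 cell library. Snhg8, a snoRNA host, had 84.6, 44.3 and 63.7 CPM in TGFB EVs, against 3.00, 4.32 and 3.44 CPM in TGFB cells (log2 difference 4.45, SE 0.54, adjusted p = 0.00655). Gas5, another snoRNA host with an oligopyrimidine start, had 169, 119 and 170 CPM in TGFB EVs, against 38.5, 42.0 and 38.9 CPM in TGFB cells (log2 difference 2.23, SE 0.29). Neat1, the scaffold of nuclear paraspeckles, had 77.6, 114 and 77.4 CPM in TGFB EVs, against 37.9, 28.0 and 28.5 CPM in TGFB cells (log2 difference 1.78, SE 0.34). All 3 were separated between compartments, and all 3 lost the call without a cell library (adjusted p up to 0.0561, 0.0629 and 0.105). The nuclear speckle RNA Malat1 had 136, 287 and 110 CPM in TGFB EVs, against 105, 61.6 and 96.3 CPM in TGFB cells, and did not pass (adjusted p = 0.101).

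Of 9 listed small RNA loci tested 5 were higher (55.6%) and 1 lower (11.1%) in TGFB EVs, beside 9.42% and 8.99% over all genes. There were 6 and 2 without EV library 2 and 1 or 0 higher without a cell library. By GENCODE biotype 8 miRNA entries were tested, 3 higher and 3 lower. All entries of that biotype averaged 0.0233% of counts in TGFB EVs and 0.162% in TGFB cells. The 4 miRNA loci among the 9 listed loci are shown by their mature sequences with the seed, bases 2 to 8, in capitals. The sequences are RefSeq's on GRCm38.p6, at chrX:162874920-162874937 (minus strand) for Mir3473a, chr4:125504805-125504825 (plus) for Mir692-2, chr10:93433107-93433129 and chr10:93433142-93433162 (plus) for the arms of Mir7688, and chr9:110281353-110281371 (plus) for Mir6236. No seed is shared. The libraries were not made to capture mature miRNAs, so a count here is of longer reads over the locus.
miR-3473a: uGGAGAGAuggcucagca
miR-692: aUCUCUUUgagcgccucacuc
miR-7688-5p: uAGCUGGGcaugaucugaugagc
miR-7688-3p: uCUGGCUUaugccuagcuuuc
miR-6236: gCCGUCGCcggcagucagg

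Mir3473a had 171, 78.2 and 149 CPM in TGFB EVs, against 0.122, 0.0765 and 0 CPM in TGFB cells (log2 difference 11.13, SE 1.25, adjusted p = 0.0055, but 0.0502 without cell library 2). Mir692-2, which lies inside Ftl2-ps on the same strand, had 35.3, 14.6 and 25.9 CPM in TGFB EVs, against 0.520, 1.11 and 0.664 CPM in TGFB cells (log2 difference 5.32, SE 0.88, adjusted p = 0.0147). Mir7688 had 5.26, 2.24 and 5.64 CPM in TGFB EVs and no count in TGFB cells, at least 44.9-fold higher against a floor of 3 counts per library. All 3 loci were at or near 0 in the cells, although Mir692-2 and Mir7688 also lost the call without a cell library (adjusted p up to 0.0961 and 0.0804). Mir6236 had 0, 0.612 and 0.579 CPM in TGFB EVs, against 42.7, 45.5 and 24.1 CPM in TGFB cells (log2 difference −6.19, SE 1.29, adjusted p = 0.024, but 0.127 without cell library 2).

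The zinc finger genes named Zfp, mostly DNA-binding regulators, moved in both directions. Of 281 tested 15 were higher (5.34%) and 47 lower (16.7%), beside 9.42% and 8.99% over all genes. Their median was −0.68, against −0.46 over all genes. Without EV library 2 there were 22 higher and 97 lower, with a median of −1.72, and without any 1 cell library 5 or 6 higher and 0 lower. Their summed share was nevertheless larger in vesicles, at 0.628% ± 0.0353 in TGFB EVs and 0.419% ± 0.0248 in TGFB cells (SD, n = 3 each). A few members stood far above their level in cells. Zfp369 had 417, 282 and 389 CPM in TGFB EVs, against 13.3, 10.5 and 15.0 CPM in TGFB cells (log2 difference 5.10, SE 0.31, adjusted p = 0.00145). Zfp106 had 1413, 1209 and 1555 CPM in TGFB EVs, against 298, 243 and 324 CPM in TGFB cells (log2 difference 2.57, SE 0.21). Zfp280b and Zfp35 were higher by 4.59 (SE 0.35) and 2.99 (SE 0.31). All 4 calls held with every library left out.

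Lysosomal transcripts, abundant in these cells, were low in the vesicles. Of 46 lysosomal enzyme and proton pump genes 19 were lower in TGFB EVs (41.3%) and 1 higher (2.17%), beside 8.99% and 9.42% over all genes. Their median was −2.15, and they made up 1.50%, 2.95% and 1.30% of counts in TGFB EVs and 8.13%, 8.25% and 7.72% in TGFB cells. Without cell library 1, 2 or 3 the number lower was 4, 4 and 6, and without EV library 2 it was 30. Cathepsin D (Ctsd), an aspartic protease, had 1337, 2449 and 811 CPM in TGFB EVs, against 10361, 11143 and 9245 CPM in TGFB cells (log2 difference −2.49, SE 0.38, adjusted p = 0.014, but 0.0738 without cell library 2). Man2b1, an alpha-mannosidase, had 53.3, 97.6 and 54.0 CPM in TGFB EVs, against 919, 875 and 898 CPM in TGFB cells (log2 difference −3.45, SE 0.27, adjusted p = 0.00242). The EV libraries stayed below every cell library for both, with library 2 the highest of them.

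Laptm5, a lysosomal membrane protein of leukocytes, had 74.7, 212 and 76.7 CPM in TGFB EVs, against 1792, 1945 and 1637 CPM in TGFB cells (log2 difference −3.64, SE 0.46, adjusted p = 0.00821). Cathepsin S (Ctss) had 546, 806 and 365 CPM in TGFB EVs, against 3624, 3492 and 3549 CPM in TGFB cells (log2 difference −2.38, SE 0.26, adjusted p = 0.00537). The calls of Man2b1, Laptm5 and Ctss held with every library left out. Ctsb and Ctsa were lower by 2.17 (SE 0.51) and 2.49 (SE 0.57) and lost the call without cell library 2 (adjusted p = 0.121 and 0.118). Cathepsin K (Ctsk) had 2038, 5577 and 1573 CPM in TGFB EVs, against 12483, 12730 and 12449 CPM in TGFB cells, and lysozyme (Lyz2) 585, 3686 and 500 CPM in TGFB EVs, against 4915, 5147 and 5904 CPM in TGFB cells. Their groups did not overlap either, but EV library 2 lay far above the other 2 and neither passed (adjusted p = 0.0509 and 0.297). The 1 higher member was the proton pump subunit Atp6v0b, with 1342, 1075 and 1291 CPM in TGFB EVs, against 345, 396 and 365 CPM in TGFB cells (log2 difference 2.03, SE 0.18, held with every library left out).

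Among genes of the disease-associated microglial state (median −1.86) 16 of 31 were lower (51.6%) and 3 higher (9.68%) in TGFB EVs, beside 8.99% and 9.42% over all genes. The number lower was 2 without any 1 of the cell libraries and 22 without EV library 2. The higher members include both ferritin chains, which keep the list's summed share near equal at 24.9%, 19.6% and 19.6% in TGFB EVs and 19.5%, 19.8% and 18.7% in TGFB cells. Gpnmb, the glycoprotein with the most counts in the cells, had 3664, 10891 and 2388 CPM in TGFB EVs, against 52085, 52432 and 46279 CPM in TGFB cells (log2 difference −2.92, SE 0.57, adjusted p = 0.0195, but 0.0878 without cell library 2). Osteopontin (Spp1) had 4061, 7094 and 2672 CPM in TGFB EVs, against 25082, 24828 and 30454 CPM in TGFB cells (log2 difference −2.28, SE 0.33, adjusted p = 0.0124, but 0.0645 without cell library 3).

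Transcripts that define microglia were low in the vesicles as well. All 18 defining microglial and macrophage markers were counted in TGFB cells, where their sum ranged from 20906 to 21586 CPM, and 14 of the 18 were counted in all 3 EV libraries, with a sum of 3212 to 9867 CPM and none at 0 in all of them. Of these markers 7 were lower (38.9%, beside 8.99% over all genes) and 0 higher (median −1.69, with 4 lower without any 1 cell library and 11 without EV library 2). Of 31 homeostatic identity genes 12 were lower (38.7%) and 0 higher (median −2.17, with 5 lower without any 1 cell library and 14 to 16 without an EV library). Their share of counts was 0.305%, 0.423% and 0.233% in TGFB EVs and 1.91%, 2.00% and 1.85% in TGFB cells. Csf1r, the receptor that microglia need to survive, had 125, 135 and 56.9 CPM in TGFB EVs, against 1283, 1261 and 1383 CPM in TGFB cells (log2 difference −3.38, SE 0.32, adjusted p = 0.00369). Every EV library was far below every cell library.

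Cystatin C (Cst3), a cathepsin inhibitor, had 506, 471 and 375 CPM in TGFB EVs, against 2305, 2646 and 2389 CPM in TGFB cells (log2 difference −2.17, SE 0.15, adjusted p = 0.00161). Itgav, the integrin chain that helps free latent TGF-β, had 32.7, 49.0 and 27.9 CPM in TGFB EVs, against 266, 215 and 298 CPM in TGFB cells (log2 difference −2.56, SE 0.28, adjusted p = 0.00471). The calls of Csf1r, Cst3 and Itgav held with every library left out. Olfml3 had 11.4, 29.7 and 62.4 CPM in TGFB EVs, against 326, 343 and 334 CPM in TGFB cells (log2 difference −2.95, SE 0.68, adjusted p = 0.0337, but 0.116 without cell library 2). Tmem119 had 57.7, 12.3 and 71.5 CPM in TGFB EVs, against 119, 140 and 129 CPM in TGFB cells, and Cx3cr1, the fractalkine receptor, 0, 3.26 and 0 CPM in TGFB EVs, against 5.87, 3.60 and 14.9 CPM in TGFB cells. Neither passed (adjusted p = 0.365 and 0.466), although no EV library reached a cell library.

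Apolipoprotein E (Apoe), the main lipid carrier of glia, had 3014, 3906 and 1968 CPM in TGFB EVs, against 47272, 47358 and 41997 CPM in TGFB cells (log2 difference −3.68, SE 0.24, adjusted p = 0.00161, held with every library left out). It led the apolipoprotein and LXR target list (median −1.90, or −1.84 with the member absent from EVs at its bound). Of the list's 14 members 5 were lower (35.7%, beside 8.99% over all genes) and 0 higher. The number lower was 1 without any 1 cell library, and 9, 5 and 7 without EV library 1, 2 and 3. Abcg1, a sterol exporter, had 16.2, 47.5 and 48.8 CPM in TGFB EVs, against 305, 304 and 287 CPM in TGFB cells (log2 difference −2.70, SE 0.49). Srebf1, the lipogenic transcription factor, had 192, 129 and 140 CPM in TGFB EVs, against 406, 411 and 433 CPM in TGFB cells (log2 difference −1.15, SE 0.21). Every EV value was below every cell value for these, and Abcg1 and Srebf1 lost the call without cell library 2 (adjusted p = 0.0827 and 0.0907). Apoc1 had 0, 4.59 and 8.11 CPM in TGFB EVs, against 49.6, 59.2 and 45.2 CPM in TGFB cells, and did not pass (adjusted p = 0.237). The phospholipid transfer protein Pltp was absent from TGFB EVs, against 2.02, 2.83 and 1.41 CPM in TGFB cells, at least 4.48-fold lower.

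Of 11 complement genes (median −2.17) 3 were lower (27.3%, beside 8.99% over all genes) and 0 higher. The number lower was 6 without EV library 2 and 2 without any 1 cell library. C1qb had 111, 54.7 and 54.6 CPM in TGFB EVs, against 698, 733 and 905 CPM in TGFB cells (log2 difference −3.13, SE 0.35, adjusted p = 0.00545). C1qc had 47.1, 27.1 and 27.1 CPM in TGFB EVs, against 334, 339 and 407 CPM in TGFB cells (log2 difference −3.14, SE 0.30, adjusted p = 0.00351). These 2 chains of C1q, the initiator of the classical pathway, dropped alike and held with every library left out. The third chain, C1qa, had 0, 0 and 1.16 CPM in TGFB EVs, against 12.4, 14.7 and 31.3 CPM in TGFB cells, and did not pass (adjusted p = 0.144).

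**Figure D3:**
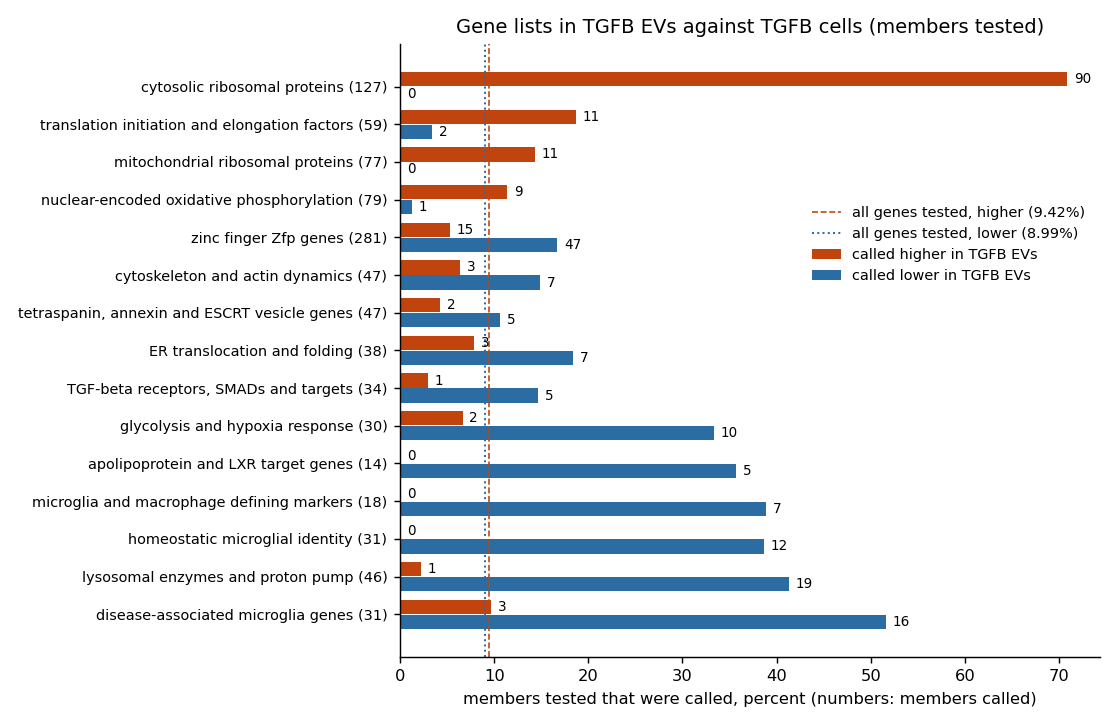
Percent of the tested members of 15 gene lists called higher (upper bar) and lower (lower bar) in TGFB EVs than in TGFB cells, with the number called at the bar's end and lines at 9.42% and 8.99% for all genes. Ribosomal protein genes stand out with 90 higher and 0 lower, and disease-associated, lysosomal and homeostatic genes with 16, 19 and 12 lower.

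Of the TGF-β pathway itself, 50 ligands, receptors, SMADs and targets were listed and 34 were tested. Of these 1 was higher (2.94%, beside 9.42% over all genes) and 5 were lower (14.7%, beside 8.99%), with a median of −1.002. Without EV library 2 there were 1 higher and 11 lower, and without any 1 cell library 1 lower. The ligand Tgfb1 had 33.1, 25.4 and 38.2 CPM in TGFB EVs, against 137, 145 and 128 CPM in TGFB cells (log2 difference −1.79, SE 0.32, adjusted p = 0.0159). The type I receptor Acvr1 was absent from TGFB EVs, against 2.05, 2.60 and 2.43 CPM in TGFB cells, at least 5.06-fold lower (adjusted p = 0.0144). Bhlhe40, a circadian repressor listed as a target, averaged 503 CPM in TGFB cells and 513 CPM in Control cells. It had 101, 128 and 54.6 CPM in TGFB EVs, against 537, 527 and 444 CPM in TGFB cells (log2 difference −2.16, SE 0.31, adjusted p = 0.0121). None of the 3 overlapped, and all 3 lost the call without a cell library (adjusted p up to 0.101, 0.0804 and 0.0699).

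Of 4 feedback targets Skil, Smad6 and Smad7 overlapped between compartments and Id3 did not. Skil, a SMAD corepressor, had 20.8, 84.8 and 58.5 CPM in TGFB EVs, against 77.8, 61.5 and 78.5 CPM in TGFB cells (adjusted p = 0.916). Its EV values straddled the cells, and the sign of its small difference of −0.13 turned without EV library 1. The inhibitory SMAD gene Smad6 had 0, 0.102 and 15.2 CPM in TGFB EVs, against 14.1, 12.3 and 10.3 CPM in TGFB cells, and Smad7 had 4.16, 11.3 and 17.5 CPM in TGFB EVs, against 13.1, 4.13 and 5.66 CPM in TGFB cells. Id3, an inhibitor of basic helix-loop-helix factors, had 0, 4.39 and 0 CPM in TGFB EVs, against 28.4, 28.0 and 25.8 CPM in TGFB cells. None of these passed (adjusted p = 0.84, 0.64 and 0.283).

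Proteins of tetraspanin, annexin and ESCRT genes are used as vesicle markers. Of 47 such genes tested 2 were higher (4.26%) and 5 lower (10.6%), with a median of −1.11, beside 9.42% higher and 8.99% lower over all genes. Without EV library 2 there were 3 higher and 19 lower, and without any 1 cell library 0 lower. The tetraspanins Cd9, Cd81 and Cd63 were lower. Cd9 had 210, 427 and 156 CPM in TGFB EVs, against 1533, 1554 and 1576 CPM in TGFB cells (log2 difference −2.30, SE 0.36, adjusted p = 0.0143). Cd81 had 37.3, 94.0 and 52.8 CPM in TGFB EVs, against 389, 386 and 368 CPM in TGFB cells (log2 difference −2.36, SE 0.36, adjusted p = 0.014). Cd63 had 435, 759 and 229 CPM in TGFB EVs, against 2042, 2257 and 1825 CPM in TGFB cells (log2 difference −1.86, SE 0.40, adjusted p = 0.028). All EV values lay below all cell values, and the 3 calls were lost without cell library 2 (adjusted p = 0.0764, 0.0764 and 0.111).

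The 2 higher members were Chmp1a, an ESCRT-III subunit, with 982, 619 and 802 CPM in TGFB EVs, against 274, 270 and 268 CPM in TGFB cells (log2 difference 1.85, SE 0.23), and Smpd2, a neutral sphingomyelinase, with 176, 71.9 and 89.2 CPM in TGFB EVs, against 24.7, 28.3 and 22.7 CPM in TGFB cells (log2 difference 2.43, SE 0.44). Both lost the call without cell library 3 (adjusted p = 0.0561 and 0.0961). The ESCRT and syntenin genes Tsg101, Pdcd6ip and Sdcbp, common vesicle markers, did not pass (adjusted p = 0.792, 0.123 and 0.182).

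Of 47 cytoskeletal genes (median −0.62) 3 were higher (6.38%) and 7 lower (14.9%), beside 9.42% and 8.99% over all genes. Without EV library 2 there were 4 and 18, while lower calls over all genes rose from 1024 to 2688. Without any 1 cell library 2 of these cytoskeletal genes were higher and 0 lower. Their summed share was larger in vesicles, 3.04% ± 0.230 in TGFB EVs and 2.30% ± 0.108 in TGFB cells (SD, n = 3 each), most of it Lcp1. Arpc1b, a subunit of the actin-branching Arp2/3 complex, had 4655, 3872 and 4779 CPM in TGFB EVs, against 972, 976 and 1220 CPM in TGFB cells (log2 difference 2.36, SE 0.19, adjusted p = 0.00221, held with every library left out). The tubulin gene Tuba1b had 1393, 955 and 1404 CPM in TGFB EVs, against 475, 533 and 607 CPM in TGFB cells (log2 difference 1.51, SE 0.24, adjusted p = 0.0141). Beta-actin (Actb) had 256, 838 and 212 CPM in TGFB EVs, against 4554, 4585 and 5258 CPM in TGFB cells (log2 difference −3.22, SE 0.56, adjusted p = 0.0155). So an actin-bundling and an actin-branching gene were higher where actin itself was lower, each without overlap. Tuba1b and Actb lost the call without a cell library (adjusted p up to 0.0788 and 0.0804).

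Of 38 genes of endoplasmic reticulum translocation and folding 3 were higher (7.89%) and 7 lower (18.4%), beside 9.42% and 8.99% over all genes. Their median was −1.05. Without EV library 2 there were 3 higher and 10 lower, and without any 1 cell library 3 and 1. The 3 higher were Srp9, Ssr3 and Ssr1. Srp9, a subunit of the signal recognition particle, had 194, 156 and 141 CPM in TGFB EVs, against 24.8, 24.6 and 31.8 CPM in TGFB cells (log2 difference 2.88, SE 0.27, adjusted p = 0.00302). The translocon-associated Ssr3 had 461, 393 and 463 CPM in TGFB EVs, against 103, 88.7 and 125 CPM in TGFB cells (log2 difference 2.35, SE 0.22), and Ssr1 651, 502 and 701 CPM in TGFB EVs, against 150, 128 and 178 CPM in TGFB cells (log2 difference 2.32, SE 0.24). The chaperone calnexin (Canx) had 149, 154 and 88.6 CPM in TGFB EVs, against 579, 514 and 661 CPM in TGFB cells (log2 difference −1.90, SE 0.23, adjusted p = 0.00661). All 4 calls held with every library left out.

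Of 30 glycolysis and hypoxia genes (median −1.25) 10 were lower (33.3%) and 2 higher (6.67%), beside 8.99% and 9.42% over all genes. Without EV library 2 the number lower was 16 with a median of −1.75, and without cell library 1, 2 or 3 it was 0, 0 and 1. Gapdh had 1356, 1571 and 1024 CPM in TGFB EVs, against 3504, 3583 and 3159 CPM in TGFB cells (log2 difference −1.11, SE 0.16, adjusted p = 0.0111). Hexokinase 2 (Hk2) had 6.80, 25.2 and 17.4 CPM in TGFB EVs, against 206, 176 and 184 CPM in TGFB cells (log2 difference −3.24, SE 0.53, adjusted p = 0.0147), and the phosphofructokinase Pfkl was lower by 2.39 (SE 0.31). All EV values were below the cell values, and the 3 calls were lost without a cell library (adjusted p up to 0.0745, 0.0803 and 0.0567). Egln1, the oxygen sensor that marks HIF for decay, was higher, with 283, 221 and 362 CPM in TGFB EVs, against 15.9, 13.3 and 13.1 CPM in TGFB cells (log2 difference 4.65, SE 0.34, adjusted p = 0.00176, held with every library left out).

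The remaining lists are set beside all genes, of which 9.42% were higher and 8.99% lower with all libraries. Without EV library 2 the lower calls over all genes rose too, from 1024 to 2688. Among these lists the share higher was largest in NRF2 targets (11.5%) and the share lower in immediate early genes (15.8%). Higher and lower members numbered 5 and 5 of 65 splicing factors, 1 and 0 of 37 proteasome subunits, 4 and 0 of 50 cell cycle genes, 1 and 1 of 32 interferon response genes, 0 and 3 of 19 immediate early genes, 3 and 1 of 26 NRF2 targets (both ferritin chains among them), 2 and 0 of 27 cholesterol and fatty acid genes, 3 and 0 of 33 inflammatory genes and 0 and 1 of 16 histone genes. Without EV library 2 the higher and lower members numbered 6 and 11 of the splicing factors, 2 and 10 of the proteasome subunits, 4 and 5 of the cell cycle genes, 1 and 16 of the interferon response genes, 0 and 4 of the immediate early genes, 3 and 9 of the NRF2 targets, 4 and 1 of the cholesterol and fatty acid genes, 4 and 6 of the inflammatory genes and 0 and 5 of the histone genes. The median of the interferon list was then −2.36, against −0.24 with all libraries, and that of the inflammatory list turned to −0.69, against 1.24. Without any 1 cell library no list among these had a lower call. Cyclin D1 (Ccnd1) had 156, 99.9 and 112 CPM in TGFB EVs, against 20.8, 20.0 and 23.5 CPM in TGFB cells (log2 difference 2.80, SE 0.32, adjusted p = 0.00528). Stard4, a sterol carrier, had 249, 194 and 371 CPM in TGFB EVs, against 13.6, 11.7 and 22.8 CPM in TGFB cells (log2 difference 4.40, SE 0.46, adjusted p = 0.00467). Both calls held with every library left out. The transcription factor genes Myc and Egr2 were absent from TGFB EVs, against 4.34, 4.06 and 3.73 CPM and 13.4, 9.64 and 6.90 CPM in TGFB cells, at least 8.67-fold and 21.4-fold lower.

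Markers of other cell types gave no large signal in the vesicles. Of 10 marker lists 2 (erythroid cells and epithelium) have no gene in the files, T and B cell markers were too low to test, and neuron, astrocyte, fibroblast and muscle markers had 0 calls among those tested, though 1 astrocyte and 1 muscle marker were lower without EV library 2. The endothelial marker Flt1 was lower, with 103, 95.0 and 46.2 CPM in TGFB EVs, against 885, 796 and 817 CPM in TGFB cells (log2 difference −3.10, SE 0.31). Mbp of the oligodendrocyte list was higher (adjusted p = 0.0474) and Apoa2 of the hepatocyte list lower (adjusted p = 0.0206), each the 1 call among 2 members tested. Summed over the lists, astrocyte markers ran from 0 to 122 CPM in TGFB EVs and from 386 to 419 CPM in TGFB cells, and neuron markers from 0.658 to 2.46 CPM in TGFB EVs and from 0.611 to 0.924 CPM in TGFB cells.

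The largest rises were genes all but silent in the cells. Enah, an actin filament elongation factor, had 72.1, 34.0 and 61.8 CPM in TGFB EVs, against 0, 0 and 0.0289 CPM in TGFB cells (fitted log2 difference 11.98, SE 1.27, adjusted p = 0.00477). Arl5c, a small GTPase of the ARF family, had 605, 312 and 585 CPM in TGFB EVs, against 0.856, 1.45 and 0.289 CPM in TGFB cells (log2 difference 9.46, SE 0.87, adjusted p = 0.00333). The transcript AC102496.1 had 490, 348 and 511 CPM in TGFB EVs, against 0.856, 0.918 and 1.18 CPM in TGFB cells (log2 difference 9.12, SE 0.37, adjusted p = 0.000883). These 3 held with every library left out. Unc13d, a priming factor of granule exocytosis, had 16.7, 9.69 and 24.3 CPM in TGFB EVs and no count in TGFB cells, at least 173-fold higher, and Grin1os 14.2, 5.81 and 9.12 CPM in TGFB EVs and no count in TGFB cells, at least 99.6-fold higher. Grin1os lies antisense to Grin1 and the strand of its reads is not given. Aldh1a3, a retinoic acid enzyme, had 83.1, 39.7 and 69.5 CPM in TGFB EVs, against 0, 0.0765 and 0 CPM in TGFB cells, and Dct and Svop were likewise near 0 in the cells. Unc13d, Grin1os, Aldh1a3, Dct and Svop lost the call without a cell library (adjusted p up to 0.0804, 0.0807, 0.0563, 0.0835 and 0.0824).

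The largest falls were genes with no count in any TGFB EV library. Abcc3, an organic anion exporter, was absent from TGFB EVs, against 129, 133 and 151 CPM in TGFB cells, at least 295-fold lower (adjusted p = 0.00313, held with every library left out). Gbf1, which activates ARF at the Golgi, was absent from TGFB EVs, against 114, 106 and 119 CPM in TGFB cells, at least 242-fold lower (adjusted p = 0.00397, but 0.0527 without cell library 3). Rufy1, Ace, C4b, Lig3, Kif3c, Dtx3l, Dhrs9 and Eefsec were absent too, with bounds from 105-fold for Rufy1 to 74.9-fold for Eefsec. Each of these 8 lost the call without a cell library, with an adjusted p of 0.0836 for Rufy1 to 0.0958 for Eefsec.

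Absence from the vesicle libraries followed the level in the cells. Of genes under 1 CPM in TGFB cells 53.9% were counted in no EV library, and of those at 30 CPM and over 0.381%. Single EV libraries also lacked genes at that higher level, and the cause was not tested. Of 5255 genes with at least 30 CPM in TGFB cells 3804 (72.4%) were counted in all 3 EV libraries and 20 in none, whereas all 5255 were counted in each cell library thinned to the total of the smallest EV library. EV library 1 lacked 1362 of them (25.9%), library 2 61 (1.16%) and library 3 265 (5.04%). The coefficient of variation between libraries was over 1 for 1195 of these genes in TGFB EVs and for 1 in TGFB cells, with a median of 0.653 in TGFB EVs and 0.0767 in TGFB cells. The share counted in all 3 EV libraries rose with the level in cells, reaching 94.7% of genes over 300 CPM.

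**Figure D4:**
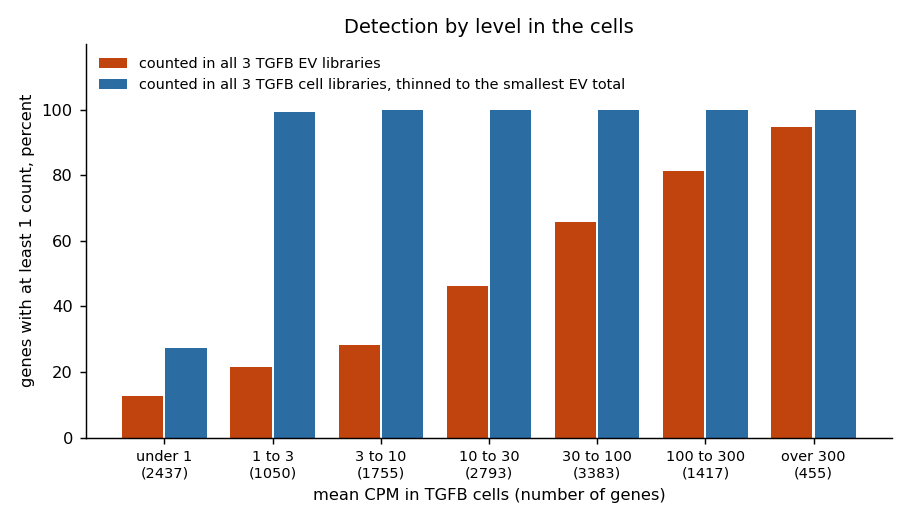
Percent of genes counted in all 3 libraries (vertical), by the gene's mean CPM in TGFB cells (horizontal), as bars for TGFB EVs and for TGFB cells thinned to the smallest EV total. TGFB EVs climb from 12.8% under 1 CPM to 94.7% over 300 CPM, and thinned TGFB cells from 27.2% to 100%.

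Transcripts that LPS switches on in the cells appeared in TGFB EVs, at their highest in library 2. Named after values were seen, 9 genes have at least 100 CPM in LPS cells and at most 1/50 of that in TGFB and Control cells. Acod1, which makes itaconate, had 0, 613 and 15.3 CPM in TGFB EVs, against 12.1, 8.49 and 11.3 CPM in TGFB cells. Il1b had 0, 171 and 3.47 CPM in TGFB EVs, against 5.65, 4.63 and 5.69 CPM in TGFB cells, and the scavenger receptor Marco 0, 215 and 4.20 CPM in TGFB EVs, against 1.34, 1.19 and 1.07 CPM in TGFB cells. In each case library 2 alone was high, and none passed. Saa3, an acute phase apolipoprotein, had 145, 871 and 50.9 CPM in TGFB EVs, against 2.90, 3.10 and 3.23 CPM in TGFB cells (log2 difference 7.06, SE 1.24, adjusted p = 0.0159). Lipocalin 2 (Lcn2) had 39.7, 227 and 18.7 CPM in TGFB EVs, against 0, 0 and 0.0289 CPM in TGFB cells (log2 difference 12.66, SE 1.77, adjusted p = 0.0108). Both were above the cells in all 3 EV libraries, and both lost the call without a cell library (adjusted p up to 0.09 and 0.0804). Hp and Gm14275, also of the 9, lay above the cells in all 3 EV libraries too. Hp had 35.9, 50.4 and 14.6 CPM in TGFB EVs, against 1.28, 0.957 and 0.895 CPM in TGFB cells. Gm14275 had 12.7, 23.4 and 3.91 CPM in TGFB EVs and no count in TGFB cells. As a percent of the level in LPS cells the 9 genes had medians of 0, 17.8 and 1.03 in TGFB EVs, and of 23.3, 2.81 and 12.7 in Control EVs and 2.23, 0.248 and 25.7 in IL10 EVs. The part of such transcripts in other results was not tested; results without EV library 2 are those given above.

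The difference between EVs and cells was then compared between treatments, as the interaction of compartment and treatment. Larger and smaller refer below to the signed log2 EV-to-cell difference, so a smaller one can mean EVs further below cells. Against the Control pair 16 of 11954 genes had a larger EV-to-cell difference in the TGFB pair (0.134%) and 21 a smaller one (0.176%). Leaving out a library moved these counts over 1 to 232 and 2 to 340, the lowest without a cell library and the highest without TGFB EV library 1 and TGFB EV library 2. Without Control EV library 1 they were 105 and 41. Of the 37 genes 21 have a group with no count at all, and with those the fitted size depends on the small count the fit adds. Apoe, Cst3 and Klhl25 held with each of the 12 libraries left out.

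None of the 16 genes with counts in every group was called between TGFB EVs and Control EVs. Between TGFB cells and Control cells Apaf1, Plec and Jak2 were not called (adjusted p = 0.914, 0.871 and 0.217), Gm26917 was lower (log2 difference −0.71, adjusted p = 0.0165) and the others were higher. These 4 are named because they stand apart from the rest. Apoe averaged 2963 ± 970 CPM in TGFB EVs and 45542 ± 3071 CPM in TGFB cells, but 12431 ± 2843 CPM in Control EVs and 15590 ± 474 CPM in Control cells (SD, n = 3 each). Its signed log2 EV-to-cell difference was lower in the TGFB pair by 3.44, a wider gap between EVs and cells (interaction −3.44, SE 0.32, adjusted p = 0.00296). Cst3 averaged 451 ± 68.0 CPM in TGFB EVs and 2447 ± 178 CPM in TGFB cells, but 861 ± 14.4 CPM in Control EVs and 812 ± 25.8 CPM in Control cells (interaction −2.35, SE 0.23, adjusted p = 0.00372). Ctss averaged 572 ± 222 CPM in TGFB EVs and 3555 ± 66.5 CPM in TGFB cells, but 1777 ± 267 CPM in Control EVs and 1817 ± 34.8 CPM in Control cells (interaction −2.43, SE 0.33, adjusted p = 0.0183). For all 3 the Control pair was close to equal where the TGFB pair was far apart. C1qb averaged 73.5 ± 32.6 CPM in TGFB EVs and 779 ± 111 CPM in TGFB cells, but 235 ± 87.5 CPM in Control EVs and 110 ± 11.5 CPM in Control cells (interaction −4.34, SE 0.53, adjusted p = 0.0179). Spp1 and Csf1r were called in the same direction. Without a Control cell library the calls of Ctss, C1qb, Spp1 and Csf1r were lost (adjusted p up to 0.127, 0.122, 0.127 and 0.199).

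In the direct comparison of vesicles, TGFB EVs against Control EVs, 0 of 9093 genes passed edgeR's quasi-likelihood test (0%), with 360 at an unadjusted p under 0.05. In TGFB cells against Control cells 1715 of 11798 genes were higher (14.5%) and 1818 lower (15.4%), 29.9% in all. Tmem119, Skil and Klhl25 were higher in TGFB cells than in Control cells, by 3.51, 3.98 and 1.78 on the log2 scale. Tmem119 averaged 47.2 ± 30.9 CPM in TGFB EVs and 129 ± 10.3 CPM in TGFB cells, against 0 CPM in Control EVs and 11.4 ± 2.06 CPM in Control cells (SD, n = 3 each). Skil averaged 54.7 ± 32.1 CPM in TGFB EVs and 72.6 ± 9.62 CPM in TGFB cells, against 0 CPM in Control EVs and 4.60 ± 1.19 CPM in Control cells. Both transcripts were counted in every TGFB EV library and in no Control EV library, and both interactions lost the call without a TGFB cell library (adjusted p up to 0.225 and 0.222). Vesicles of the other treatments held them too. Tmem119 averaged 19.0 ± 19.5 CPM in IL10 EVs and 12.2 ± 11.4 CPM in LPS EVs. Skil averaged 0.707 ± 1.08 CPM in IL10 EVs and 13.5 ± 11.8 CPM in LPS EVs.

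**Figure D5:**
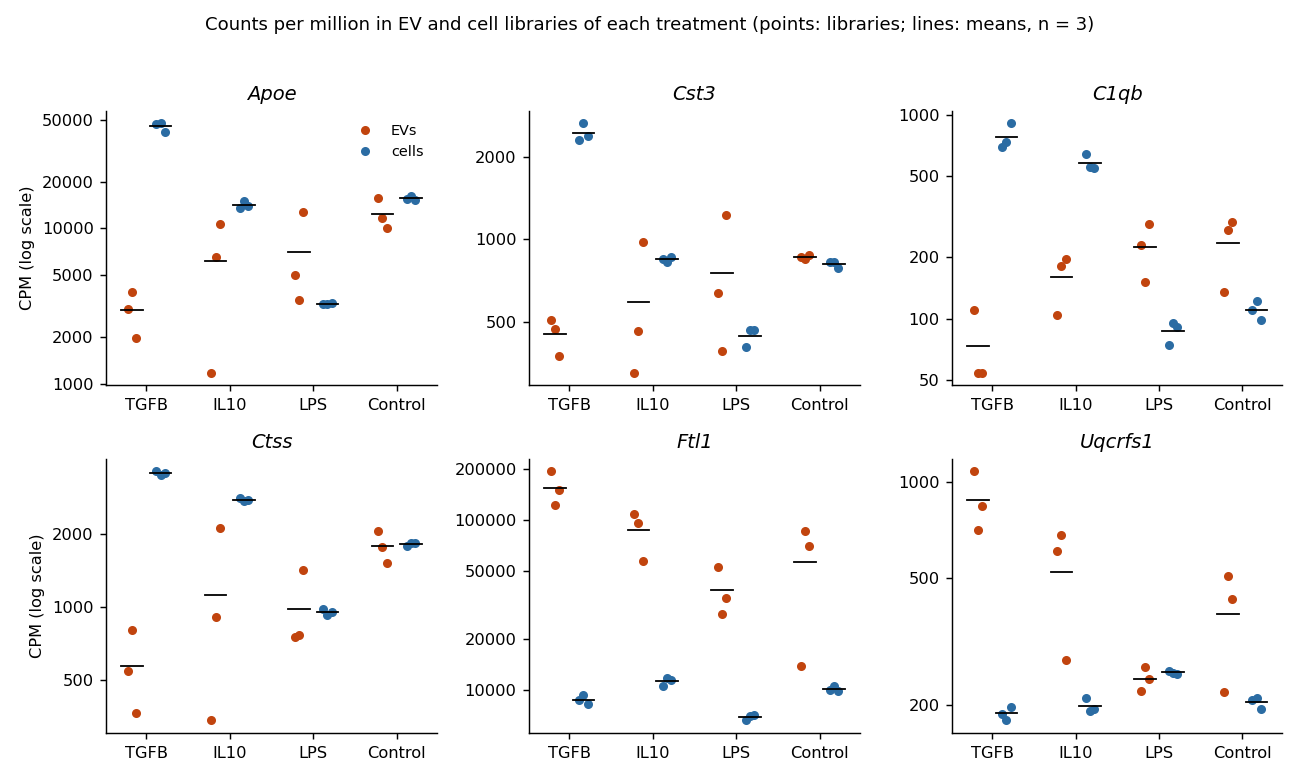
CPM of Apoe, Cst3, C1qb, Ctss, Ftl1 and Uqcrfs1 (log axis) in EVs and cells of the TGFB, IL10, LPS and Control pairs, with 1 point per library and a line at each mean. Apoe, Cst3, C1qb and Ctss are lower in all 3 TGFB EV libraries than in TGFB cells, and Ftl1 is higher in every EV library than in the cells of its treatment.

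Against the IL10 pair 0 of 11855 genes passed (0%), with 1037 at an unadjusted p under 0.05 and 428 called by DESeq2. Without an EV library some passed: 144 larger and 26 smaller without IL10 EV library 1, 6 and 4 without IL10 EV library 2, 1 and 0 without IL10 EV library 3, 72 and 5 without TGFB EV library 1, 20 and 82 without TGFB EV library 2, and 3 and 0 without TGFB EV library 3. Against the LPS pair 588 of 13246 genes had a larger EV-to-cell difference in the TGFB pair (4.44%) and 1584 a smaller one (12%), 16.4% in all. The TGFB EV libraries had 19.6% to 50% of the listed genes at 0 and the LPS EV libraries 0.489% to 4.42%, and the part of this in the interaction was not tested. Without TGFB EV library 1 916 were larger, without TGFB EV library 2 3094 were smaller, and without any 1 cell library 281 to 377 were larger. Ftl1 averaged 156224 ± 36377 CPM in TGFB EVs and 8714 ± 534 CPM in TGFB cells, against 38687 ± 13204 CPM in LPS EVs and 6915 ± 288 CPM in LPS cells (SD, n = 3 each; interaction 2.12, SE 0.44, adjusted p = 0.00773). Uqcrfs1 averaged 879 ± 189 CPM in TGFB EVs and 188 ± 9.23 CPM in TGFB cells, against 242 ± 21.3 CPM in LPS EVs and 254 ± 2.59 CPM in LPS cells (interaction 2.79, SE 0.28, adjusted p = 0.000812). Atp5a1 averaged 3622 ± 569 CPM in TGFB EVs and 970 ± 11.1 CPM in TGFB cells, against 938 ± 144 CPM in LPS EVs and 1165 ± 20.2 CPM in LPS cells (interaction 2.69, SE 0.35, adjusted p = 0.00154). Uqcrfs1 and Atp5a1 were no higher on average in LPS EVs than in LPS cells.

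Of the 1073 genes higher in TGFB EVs, 639 were also higher in IL10 EVs than in IL10 cells (59.6%, and 74.6% of the 857 called there), 523 in LPS EVs than in LPS cells (48.7%, and 15.8% of 3320) and 87 in Control EVs than in Control cells (8.11%, and 62.1% of 140). Without Control EV library 1 the last number was 779 (72.6%, and 56.6% of 1377). Of the 1024 lower genes, 351 were also lower in the IL10 pair (34.3%, and 30.03% of 1169), 229 in the LPS pair (22.4%, and 11.5% of 1993) and 296 in the Control pair (28.9%, and 27.5% of 1078), or 553 without Control EV library 1 (54.0%, and 19.8% of 2798). Without any 1 Control cell library edgeR's quasi-likelihood test called 0 genes in the Control pair, with 373 to 398 higher and 1268 to 1288 lower at an unadjusted p under 0.05. These fits were chosen after values had been seen. The shares of all genes called higher and lower were 7.49% and 10.2% in the IL10 pair, 25.3% and 15.2% in the LPS pair and 1.23% and 9.43% in the Control pair. In the LPS pair 36 of the higher and 179 of the lower genes were called in the opposite direction.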

How the data were processed

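Raw read counts per gene were deposited by the authors as 1 table for EVs and 1 for cells per treatment set, and were used as deposited. The submitters' processing notes name DESeq2. For its version, and for aligner and build, nothing is given in the sources used here. EV and cell columns were joined on gene symbol. Of 13290 entries, 16 names read as numbers and 3 symbols are duplicated; these were named nowhere. Members and gene lists were chosen with earlier results of these data known.

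Genes passing edgeR's filter were tested with edgeR 4.0.16 (R 4.3.3; TMM, robust quasi-likelihood test, Benjamini-Hochberg, threshold 0.05) in the 6 TGFB libraries; interactions used the 12 libraries of 2 treatments. An interaction is the log2 EV-to-cell difference of the TGFB pair minus that of the other. CPM are the authors' counts scaled by the library total, and TMM adds 0.28 to log2 EV-to-cell differences over CPM ratios. Bounds use 3 counts per library (0.306 to 0.658 CPM in TGFB EVs, 0.0866 to 0.115 CPM in TGFB cells). Single values were tested with exact permutation over 20 assignments. Alternatives used DESeq2 1.42.0 and limma 3.58.1 (voom with quality weights), other scalings, filters, thinning and leaving out each library; scripts were tested on simulated data. Figures used Python 3.11.15 and matplotlib 3.10.9.

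Named genes were the 10 largest rises and falls (no overlap, and 50 counts or more on average where higher), the 3 unnamed models with the lowest p in each direction, the 10 genes with the most counts in each compartment, the 4 or fewer list members lowest in adjusted p, a fixed set of microglial, TGF-β and vesicle genes, and the largest interactions; not all are printed, and some are not reported here. Iron genes, Gnpat and LPS-induced genes were added after values were seen. GENCODE M21 gave a length and biotype for 13274 entries. Several named genes overlap another gene on the opposite strand (Ctsa and Pltp, Csf1r and Hmgxb3, Arpc1b and Pdap1, Atp5a1 and Haus1), and the library kit does not keep strand, so their reads cannot be told apart. Same-numbered EV and cell libraries did not deviate together (r = −0.04, 0.005 and −0.03 over 7902 genes). The coefficient of variation between libraries had a median of 0.653 in TGFB EVs and 0.0767 in TGFB cells, over 5255 genes. With EV libraries that far apart, such an r cannot decide whether same-numbered libraries are paired. No 2 libraries of a group agreed within sampling noise.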

Additional observations from a re-analysis of the deposited data

Results flagged for a closer look

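The results here are differences between treatments in the signed log2 EV-to-cell difference, each past the test of the interaction in edgeR's quasi-likelihood fit. Against Control 37 genes passed and against LPS 2172. Against Control the microglial and lysosomal genes Apoe (interaction −3.44, SE 0.32, adjusted p = 0.00296), Cst3 (−2.35, SE 0.23, 0.00372), C1qb (−4.34, SE 0.53, 0.0179), Spp1 (−2.93, SE 0.39, 0.0179), Ctss (−2.43, SE 0.33, 0.0183) and Csf1r (−2.66, SE 0.43, 0.0442) had a lower signed EV-to-cell difference in the TGFB pair. There the EVs lay below the cells, by a wider gap than that between Control EVs and Control cells. In the same genes the vesicle values of TGFB and Control did not differ past the threshold. Apoe and Ctss also passed in limma-voom (adjusted p = 0.0199 and 0.0258), and Cst3, C1qb, Spp1 and Csf1r did not.

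Genes with no count in 1 of the 4 groups have a fitted size that is no bound. With no count in Control EVs these are Klhl25 (interaction 12.44, SE 0.86, adjusted p = 0.00296), Tmem119 (9.52, SE 1.41, 0.0463), Skil (9.22, SE 1.33, 0.0442) and Ankrd50 (14.61, SE 1.61, 0.0179), and with no count in TGFB EVs Eefsec (−11.58, SE 1.30, 0.0179). Klhl25 averaged 111 CPM in TGFB EVs and 78.8 CPM in TGFB cells, against 0 CPM in Control EVs and 23.1 CPM in Control cells.

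Against LPS the EV-to-cell difference was larger in the TGFB pair for Ftl1 (interaction 2.12, SE 0.44, adjusted p = 0.00773), Uqcrfs1 (2.79, SE 0.28, 0.000812), Atp5a1 (2.69, SE 0.35, 0.00154) and Lcn2 (15.28, SE 1.44, 0.000812). It was smaller for Apoe (−4.62, SE 0.63, 0.00162), Cst3 (−2.75, SE 0.53, 0.00545) and C1qb (−4.34, SE 0.50, 0.00114). Lcn2 had 0, 0 and 1 count in the TGFB cell libraries, so its fitted size depends on the small count the fit adds. The comparisons with Control and with LPS share the TGFB libraries.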

How the results depend on the processing

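Counts of calls moved most. Against 1073 higher and 1024 lower genes, DESeq2 gave 1650 and 2068, limma-voom 1705 lower, and a minimum of 50 counts on average 629 lower. Leaving out 1 library gave 300 to 1790 higher and 40 to 2688 lower. For the interaction with Control (16 larger, 21 smaller), upper quartile scaling gave 10 and 12, DESeq2 465 and 321, limma-voom 0 and 2, no filter 9 larger, and leaving out 1 library 1 to 232 and 2 to 340. For IL10 (0 and 0), DESeq2 gave 250 and 178, limma-voom 0 in all, and leaving out 1 library 0 to 144 and 0 to 82. For LPS (588 and 1584), library totals gave 386 larger, limma-voom 381 and 703, DESeq2 2777 smaller, a minimum of 50 counts 629 smaller, and leaving out 1 library 281 to 916 and 1197 to 3094. The cause of these shifts was not tested.

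Same-numbered EV and cell libraries are not shown to be paired. With the replicate block 301 genes were higher and 46 lower, and 57 named genes lost their call. Of 134 named genes tested 111 were called. Calls were lost by 56 or 57 of these without 1 cell library, by 2 to 4 without 1 EV library and by 22 in limma-voom. Among named genes with a result, no call was lost under RLE scaling, DESeq2, thinned cells, no filter or a 50-count minimum. Of the 134, thinned cells gave a result for 133 and the 50-count minimum for 129, and DESeq2 gave none for some. Calls of genes without a result are not counted as kept. No called gene changed sign. Of genes not called, Skil (−0.13) turned to 0.0022 under upper quartile scaling and ranged from −0.52 to 0.25 with 1 library left out. Il1b (3.65) turned to −0.45 in limma-voom and −0.15 with the block, and ranged from −1.16 to 4.22. Acod1 (4.503) ranged from −0.025 to 5.07. Medians of 14 lists were recomputed under every alternative and kept their sign. Of the other lists, markers of other cell types aside, those of oxidative phosphorylation, translation factors and inflammatory genes turned without EV library 2. Those of interferon response genes (−0.24) and NRF2 targets (−0.22) reached 0.041 and 0.093 with another library left out. Depth limits what 0 counts in an EV library mean, and by exon length the median difference ran from −0.10 in the shortest of 5 equal bins of genes to −0.61.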

Other observations

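A set of 6 transcripts that TGF-β induces in the cells, named after values were seen, was carried unevenly. These genes (Cyp4f18, Kynu, Olfml3, Apoc1, Apoc4 and AU020206) have at least 20 CPM in TGFB cells and at most 1/8 of that in the other cells. Their median was 1.71%, 8.91% and 11.6% of the TGFB-cell level in TGFB EVs, against 2.98%, 24.9% and 8.77% in Control EVs. The median was 0.823%, 3.09% and 0% in IL10 EVs and 13.4%, 12.2% and 36.5% in LPS EVs. AU020206 was the exception, with 277, 173 and 323 CPM in TGFB EVs, against 54.1, 50.2 and 54.0 CPM in TGFB cells. In Control EVs it had 1.56, 97.1 and 18.3 CPM.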
